A study of Mus musculus with 12 samples.

Results

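The genes described here encode the protein-folding machinery of the cell in 4 compartments: 20 heat shock and co-chaperone genes of the cytosol, 3 chaperone genes of mitochondria, the 8 subunit genes of the cytosolic chaperonin CCT, and 16 folding, quality-control and regulator genes of the endoplasmic reticulum (ER). They were chosen by gene symbol, with earlier results of these data known, and are 47 of the 50643 genes listed. All 47 were found and had enough counts to be tested, among 16694 genes tested in all. RNA came from natural killer (NK) cells, lymphocytes of innate immunity with cytotoxic and cytokine functions, isolated from spleens of C57BL/6 mice by removing other cells. Listeria is a bacterium that lives inside host cells, and Mirc11 is a cluster of microRNA genes (miR-23a, miR-27a and miR-24-2). The 4 groups of 3 libraries each were Mirc11-/- (knockout) challenged with Listeria, wild-type challenged with Listeria, Mirc11-/- unchallenged and wild-type unchallenged.

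The labels give the knockout genotype of the mice and name neither a Cre driver nor a cell type to which the deletion is limited. The sources used here do not state the animals' age or sex, nor how much Listeria was given, by what route or for how long. The series title asks how Mirc11 acts on the inflammatory response of NK cells. The series' design text calls the libraries biological replicates without stating separate animals, so the p-values measure the spread between these libraries, part of which may be technical.

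As background, newly made and damaged proteins are folded by chaperones of the Hsp70 and Hsp90 families in the cytosol, with J proteins and nucleotide exchange factors setting their pace. The barrel-shaped CCT complex folds actin, tubulin and other proteins that cannot fold free in solution, and the mitochondrial chaperonin does the same in the matrix. Heat shock factors such as Hsf1 induce the cytosolic set when unfolded protein accumulates there, and the unfolded protein response, through Xbp1 and other factors, induces the ER set when secretory load is high, as it is in lymphocytes that start to make granules, cytokines or antibody.

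Libraries held 17624530 to 23665679 counts. Levels below are CPM, counts scaled to the library total, and log2 fold changes come from a fit that also scaled libraries by TMM factors of 0.949 to 1.036. The primary transcripts of the deleted cluster could not check the genotype labels, since Mir23a, Mir27a and Mir24-2 had 0 counts in all 12 libraries. Sex-linked transcripts differed between the genotypes: Xist, made from the inactive X chromosome, lay at 526 to 1027 CPM in challenged knockout against 1154 to 1464 CPM in challenged wild-type, and at 0.362 to 1.08 CPM in unchallenged knockout against 1198 to 2025 CPM in unchallenged wild-type. The Y-linked Ddx3y was at 83.6 to 135 CPM in unchallenged knockout, at 44.1 to 80.5 CPM in challenged knockout and at 34.6 CPM in the unchallenged wild-type library numbered 4, against at most 0.133 CPM in the other wild-type libraries, so that sex and genotype cannot be told apart here. Challenged knockout libraries carried both transcripts, whereas unchallenged knockout libraries held Xist at no more than 1.08 CPM. Sex therefore cannot be told apart from challenge in knockout either, nor from the difference between the challenge responses of the genotypes. The sources used here do not state whether a library pools animals.

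NK cell markers were high in all 12 libraries, with a summed level of 10 markers of 5300 to 5948 CPM in challenged knockout, 4035 to 4111 in challenged wild-type, 7352 to 7602 in unchallenged knockout and 6966 to 7947 in unchallenged wild-type. The sum hides differences between single markers. After challenge, 7 of the 10 were higher and 1 lower in knockout than in wild-type, at a median log2 difference of 1.01. Of all tested genes, 22.7% were higher and 25.9% lower. Ncr1 was at 565 to 712 CPM in challenged knockout against 182 to 206 in challenged wild-type, and Gzma at 1428 to 1639 against 1571 to 1671. Markers of other cells were present as well and none of the 77 marker genes in the table was at 0 in any library. Summed red-cell markers reached 19988 to 25020 CPM in challenged knockout against 1722 to 2307 in challenged wild-type, and neutrophil markers 738 to 1145 in challenged knockout against 1457 to 1709 in challenged wild-type. In these bulk samples, fewer cells of a type and less RNA per cell cannot be told apart.

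Challenge with Listeria was accompanied by higher levels of nearly the whole folding set in both genotypes, and by a smaller increase in the knockout. In knockout cells, 38 of the 47 genes rose, Herpud1 alone fell and 8 were not called (adjusted p below 0.05, edgeR), with a median log2 fold change of 0.50; of all tested genes, 15.6% rose and 11.5% fell in that comparison, and their median was -0.01. In wild-type cells, 42 rose, 0 fell and 5 were not called, with a median of 1.17, against 32.4% of all genes rising and 30.9% falling around a median of -0.01. The count of 0 was also 0 at an unadjusted p below 0.05, in DESeq2 and in limma-voom. The 47 genes together took 1.06% to 1.11% of all counts in challenged knockout and 1.97% to 2.07% in challenged wild-type, against 0.744% to 0.758% in unchallenged knockout and 0.727% to 0.757% in unchallenged wild-type, so the challenged groups did not overlap each other while the unchallenged ones did.

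Between the genotypes after challenge, 43 of the 47 genes were lower in knockout cells and 0 higher, at a median log2 difference of -0.75. Among all genes, 25.9% were lower and 22.7% higher, with a median of -0.00; the 0 stood at 0 by unadjusted p and by both other tools. A test of the difference between the 2 challenge responses, the interaction term of the same fit, called 38 genes with a smaller response in knockout and 0 with a larger one, at a median of -0.70, while 18.5% of all genes were called smaller and 16.7% larger around a median of 0.00. No member passed an unadjusted p below 0.05 for a larger response, nor in DESeq2 or limma-voom. These comparisons share libraries and are therefore not separate lines of evidence. Since the 47 genes were chosen with earlier results of these data known, the shares of all genes give a scale and are not a test of the set.

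**Figure D1:**
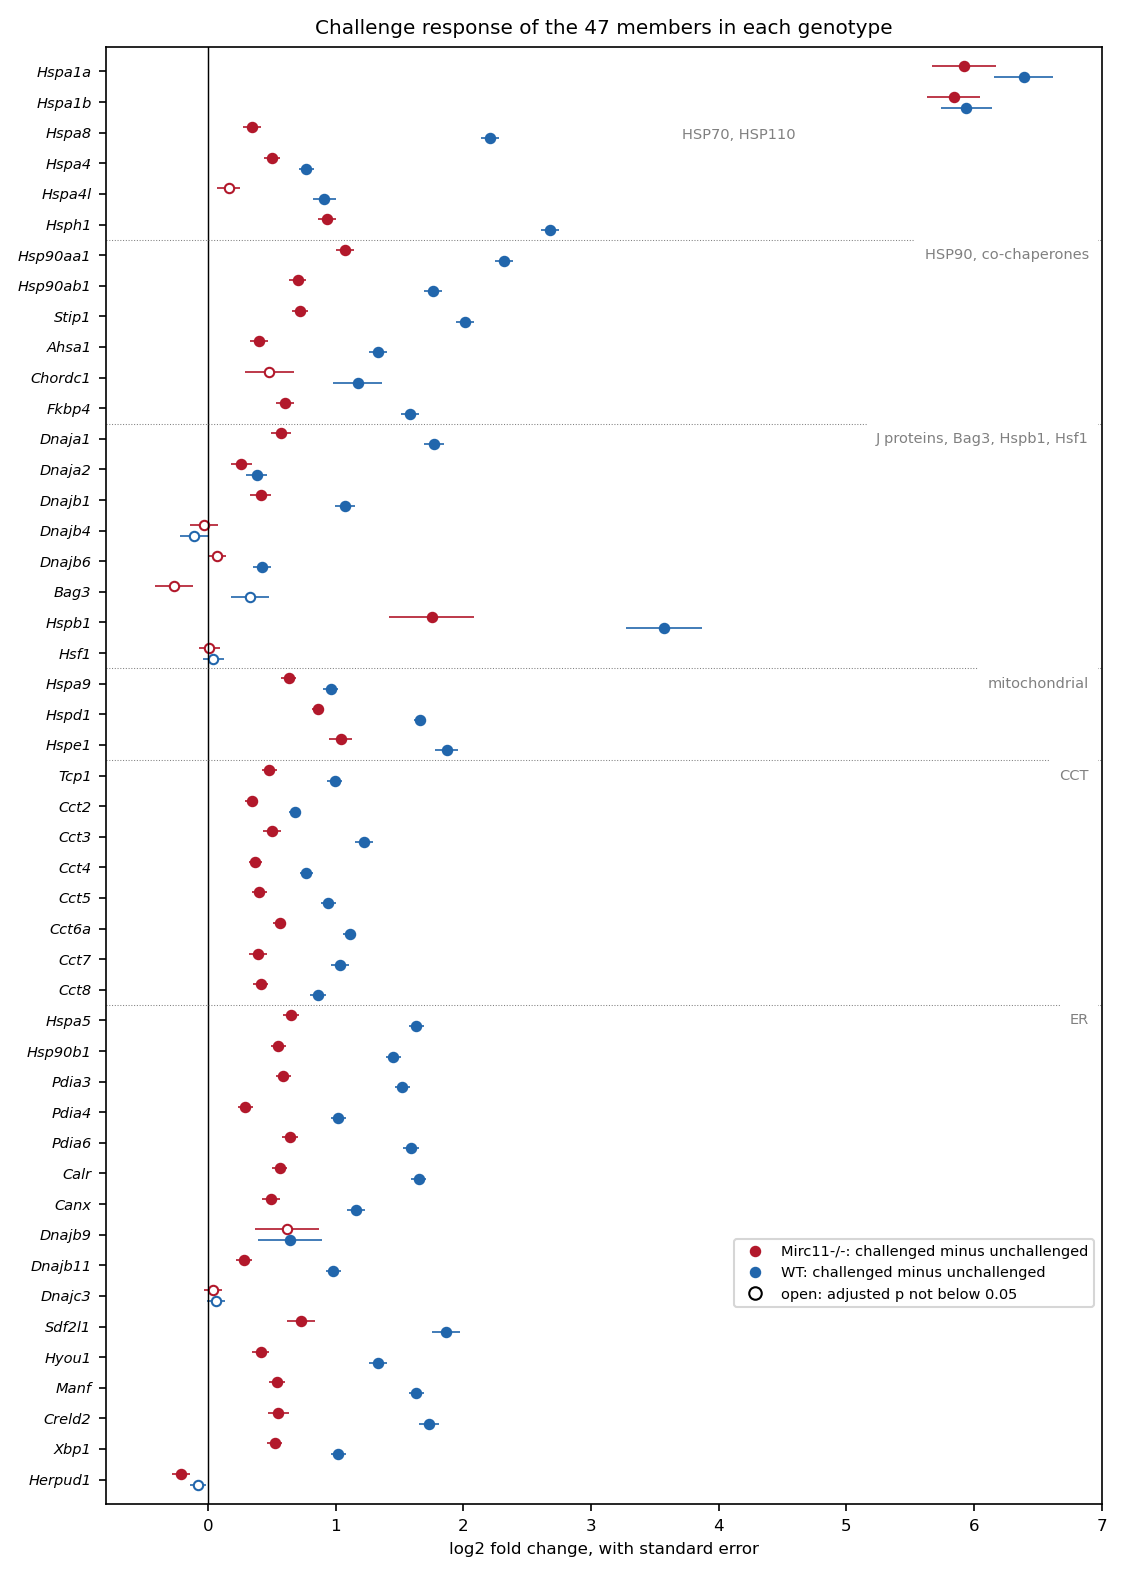
Log2 fold change of challenged over unchallenged cells for each of the 47 genes (x axis, with standard error), Mirc11-/- in red above wild-type in blue, open where the adjusted p was not below 0.05. Hspa1a and Hspa1b stand near 6 in both genotypes, and for most other genes the wild-type point lies to the right of the knockout point.

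Other transcripts moved with the same groups. The 10 proliferation markers all rose on challenge in both genotypes, at a median log2 of 0.67 in knockout and 1.94 in wild-type, and all 10 were lower in challenged knockout than in challenged wild-type, at a median of -0.61. Without challenge they were all higher in knockout, at a median of 0.61, and all 10 had a smaller response in knockout, at a median of -1.30. Of the 10 NK markers, 8 fell on challenge in knockout, at a median of -0.43, and 8 in wild-type, at a median of -1.37. Their response difference, knockout minus wild-type, was called positive for 7 and negative for 1, at a median of 1.06. Of all genes, 16.7% were called positive and 18.5% negative. The part of proliferation, of cell composition and of sex in the differences between the folding genes was not tested.

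**Figure D2:**
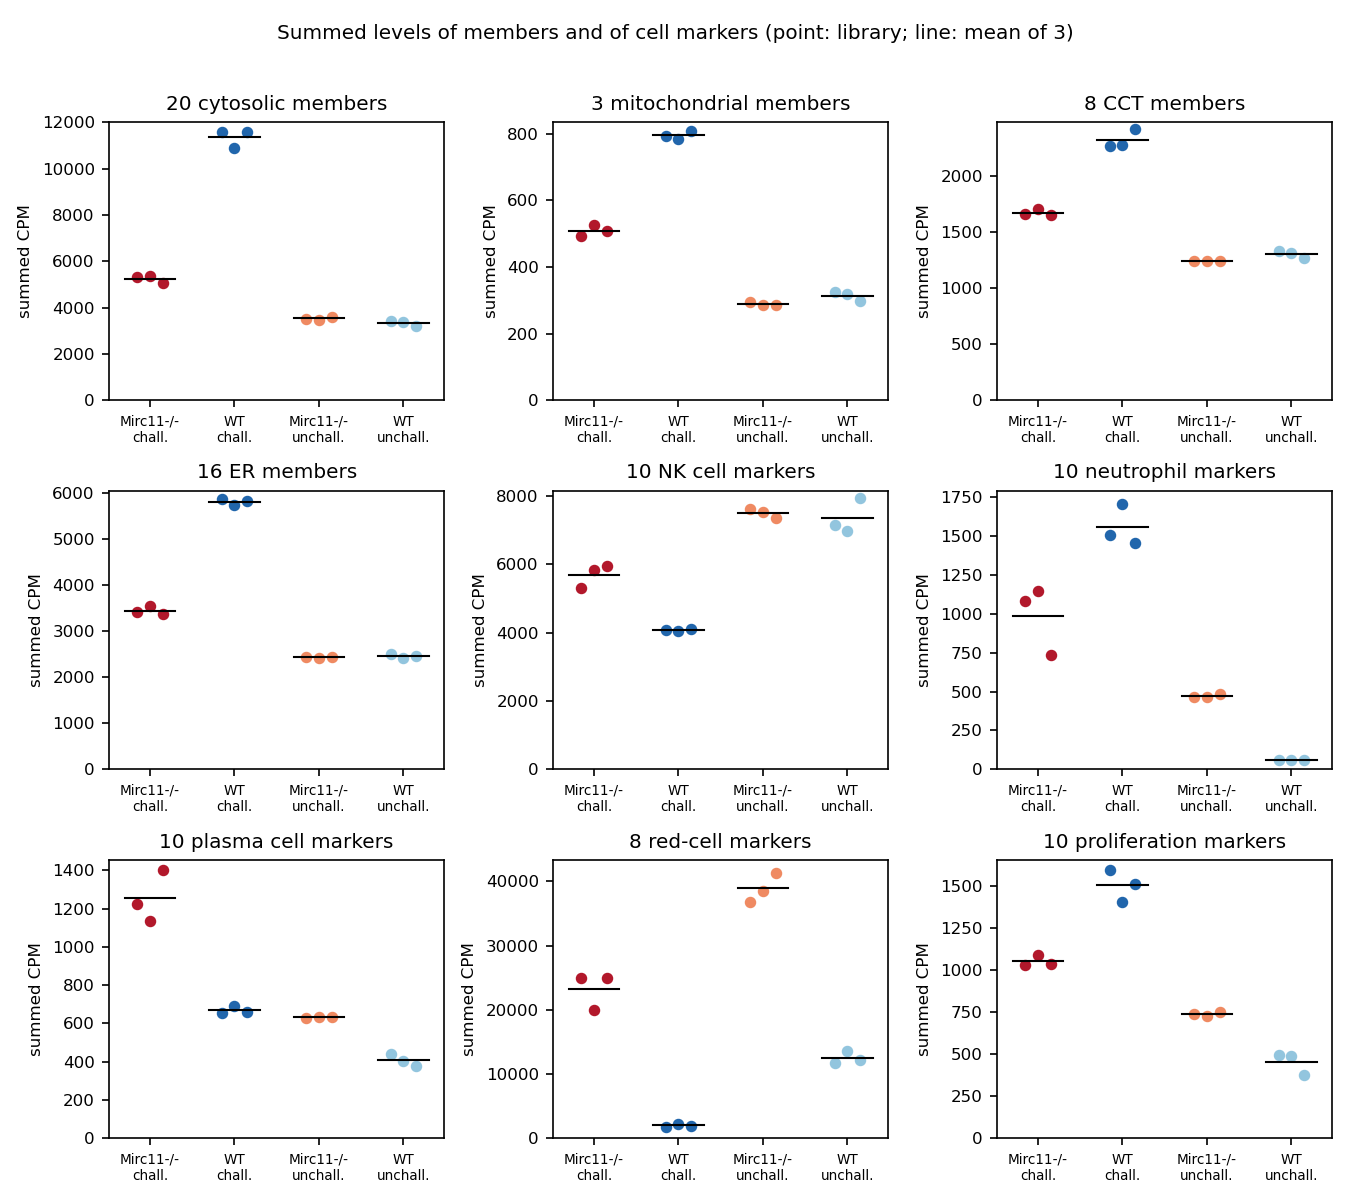
Summed CPM of the 4 compartments of folding genes and of 5 lists of cell markers (y axis from 0) in the 4 groups, with 1 point per library and a line at the mean of 3. Each folding compartment is highest in challenged wild-type and intermediate in challenged Mirc11-/-, whereas red-cell markers are highest in unchallenged Mirc11-/- at 36770 to 41357 CPM.

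Among the Hsp70 and Hsp110 genes, the 2 stress-inducible Hsp70 copies gave the largest fold changes of all 47 genes. In knockout cells, Hspa1a was at 51.9, 33.6 and 34.7 CPM after challenge, against 0.681, 0.543 and 0.743 CPM without it. In wild-type cells it was at 80.2, 76.1 and 92.9 CPM after challenge, against 0.928, 1.43 and 0.813 CPM without it. Challenged libraries lay far above unchallenged ones in both genotypes, and all challenged knockout libraries lay below all challenged wild-type libraries. The increase was 60.7-fold in knockout (log2 5.92 ± 0.25 SE) and 83.8-fold in wild-type (6.39 ± 0.23), with edgeR adjusted p of 1.64e-09 and 3.26e-11. The difference of -0.46 ± 0.45 between these responses was not called (adjusted p = 0.461).

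Hspa1b is the neighbouring copy, at chr17:34956436-34959238 beside Hspa1a at chr17:34969190-34972156 (GRCm38, both on the minus strand). It was at 106, 77.4 and 65.3 CPM in challenged knockout, against 1.65, 1.40 and 1.29 CPM in unchallenged knockout. In wild-type it had 137, 141 and 158 CPM after challenge, against 3.06, 2.25 and 2.34 CPM without it. All groups were separate, including the unchallenged genotypes, where knockout was the lower one without passing the test (log2 -0.80 ± 0.30, adjusted p = 0.117, edgeR). The increases were 57.3-fold in knockout and 61.3-fold in wild-type, and their difference of -0.10 ± 0.34 had an adjusted p of 0.852. After challenge, both copies were lower in knockout than in wild-type, at 45.3% of the wild-type level for Hspa1a and 53.6% for Hspa1b. Their coding sequences are identical at 1915 of 1926 aligned positions (99.4%), so how reads were divided between the copies is uncertain.

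The promoter of Hspa1a is shown because this gene had the largest change in the cytosol. Its window of 250 bases before to 50 after the RefSeq start (GRCm38.p6, minus strand, chr17:34972107-34972406) holds 1 match to a pair of inverted heat shock element units, in capitals, whose first base is at position -104; the window of Hspa1b differs from it at 4 of 300 bases and has the match at the same position.
Hspa1a: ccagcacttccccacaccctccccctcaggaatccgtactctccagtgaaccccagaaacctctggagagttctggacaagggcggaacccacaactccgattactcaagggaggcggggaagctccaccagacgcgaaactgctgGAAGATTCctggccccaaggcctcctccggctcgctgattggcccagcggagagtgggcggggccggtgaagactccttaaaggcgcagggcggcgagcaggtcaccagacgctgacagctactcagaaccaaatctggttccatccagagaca
The letters searched were GAANNTTC and TTCNNGAA on both strands, which can overlap each other. Entries in the RefSeq table matched 39 of the 47 genes by symbol. Of these, 15 held such a pair in at least 1 of their windows, 10 of 16 cytosolic, 2 of 2 mitochondrial, 3 of 7 CCT and 0 of 14 ER genes, against 17% of all 27025 genes in the table. An array of 3 alternating units stood in 5 of them, namely Hsph1, Chordc1, Dnajb6, Hspd1 and Hspe1, against 0.662% of all genes. A match describes the letters only, and a window without one says nothing of a factor.

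Hspa8 (chr9:40800984-40810087, GRCm38, plus strand), the constitutive Hsp70 of the cytosol, rose far less in knockout than in wild-type. Knockout cells had 1798, 1775 and 1567 CPM after challenge, against 1312, 1324 and 1392 CPM without it. Wild-type cells had 4852, 4468 and 4837 CPM after challenge, against 1116, 1125 and 1050 CPM without it. The challenged knockout libraries were thus nearer to the unchallenged ones than to challenged wild-type. The increase was 1.27-fold in knockout (log2 0.34 ± 0.07, adjusted p = 0.00129) and 4.62-fold in wild-type (2.21 ± 0.07, adjusted p = 1.26e-12), and the difference of -1.87 ± 0.09 was the largest of the 47 in the interaction test (adjusted p = 5.29e-09, edgeR).

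Hsph1, the Hsp110 that exchanges nucleotide on Hsp70, followed the same order. It was at 106, 110 and 113 CPM in challenged knockout, against 58.8, 55.3 and 57.7 CPM in unchallenged knockout. Challenged wild-type libraries had 280, 276 and 280 CPM, against 51.2, 47.8 and 41.4 CPM in unchallenged wild-type. All 4 groups were separate, and the increase was 1.90-fold in knockout and 6.40-fold in wild-type, with a difference of -1.75 ± 0.10 (adjusted p = 9.61e-09, edgeR). The related Hspa4 rose in both genotypes, by 0.50 ± 0.06 in knockout and 0.77 ± 0.06 in wild-type. Hspa4l was not called in knockout (0.16 ± 0.09, adjusted p = 0.185; 0.24 and adjusted p = 0.0346 without challenged knockout replicate 1) and rose by 0.91 ± 0.09 in wild-type, with a response difference of -0.74 ± 0.12 (adjusted p = 0.000231). The response difference of Hspa4, -0.27 (adjusted p = 0.0298), was not called in 10 of 21 other settings. These were library totals without TMM (-0.16, adjusted p = 0.193), upper-quartile scaling, the replicate block (adjusted p = 0.0614), no filter on low counts, and the fits without unchallenged knockout replicate 3 or 4, challenged wild-type replicate 1 or unchallenged wild-type replicate 3 or 4, or without challenged knockout replicate 3 and unchallenged wild-type replicate 4 together.

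**Figure D3:**
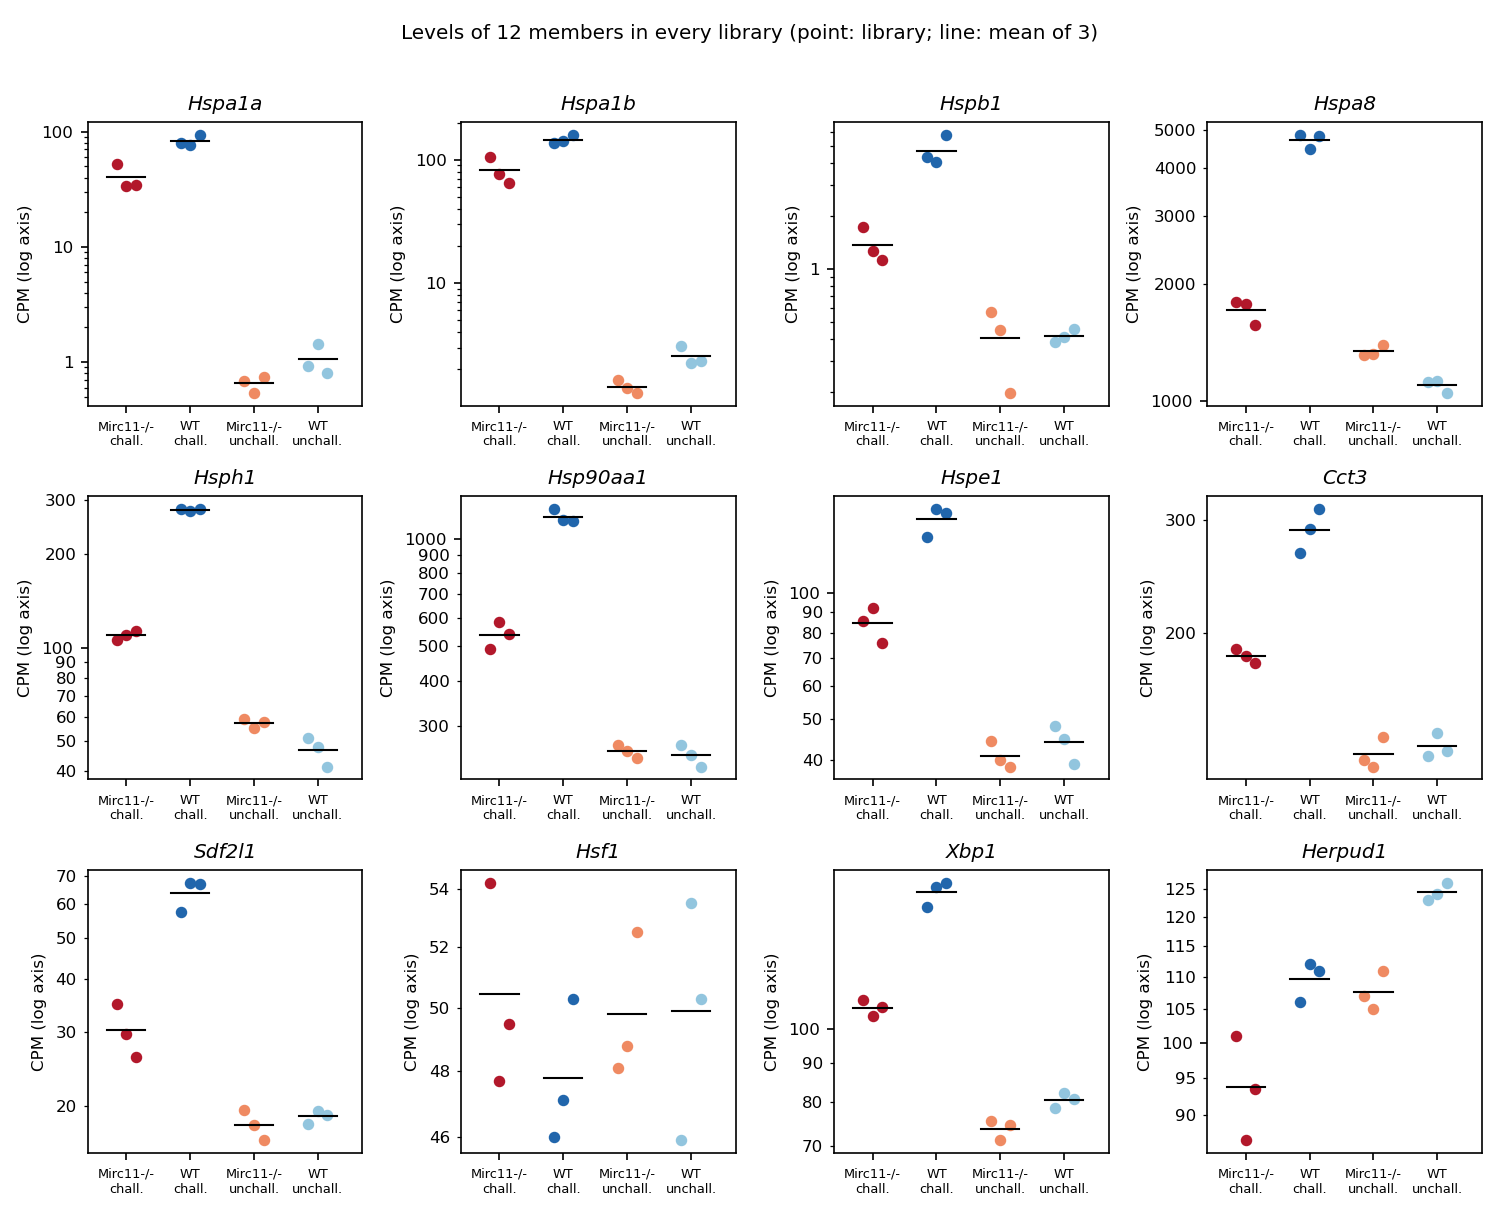
Levels of 12 of the 47 genes in every library (y axis, CPM on a log axis that differs between panels), with 1 point per library and a line at the mean of 3. Challenged wild-type is the highest group for 10 of the 12; Hsf1 shows overlapping groups within 45.9 to 54.2 CPM, and Herpud1 is highest in unchallenged wild-type.

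The Hsp90 genes and their co-chaperones rose in wild-type without exception, 6 of 6, and 5 of 6 rose in knockout (100% and 83.3%, against 32.4% and 15.6% of all genes). Hsp90aa1, the inducible Hsp90, was at 492, 586 and 541 CPM in challenged knockout, against 266, 255 and 244 CPM in unchallenged knockout. Its levels in wild-type were 1209, 1127 and 1123 CPM after challenge, against 266, 249 and 231 CPM without it. The unchallenged genotypes overlapped and the challenged ones were separate. Its increase was 2.10-fold in knockout (1.07 ± 0.07) and 4.99-fold in wild-type (2.32 ± 0.07), and the responses differed by -1.25 ± 0.10 (adjusted p = 2.59e-07, edgeR).

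Stip1, which hands client proteins from Hsp70 to Hsp90, was at 143, 138 and 146 CPM in challenged knockout, against 82.5, 86.2 and 89.8 CPM in unchallenged knockout. Challenged wild-type libraries had 329, 290 and 325 CPM, against 83.6, 87.0 and 81.0 CPM in unchallenged ones. Challenged knockout lay between these levels, at 42.4% of challenged wild-type, with a response difference of -1.29 ± 0.09 (adjusted p = 8.13e-08, edgeR). Hsp90ab1, the constitutive Hsp90, had 1514, 1408 and 1378 CPM in challenged knockout, against 847, 843 and 940 CPM in unchallenged knockout. Wild-type libraries reached 2903, 2805 and 3058 CPM with challenge, against 935, 962 and 894 CPM without it. Challenged groups were again separate, and the response difference was -1.05 ± 0.09 (adjusted p = 7.01e-07). Ahsa1, which activates the Hsp90 ATPase, and the immunophilin Fkbp4 had response differences of -0.93 ± 0.09 and -0.98 ± 0.10, both called. Chordc1, an Hsp90 co-chaperone, was not called in knockout (0.48 ± 0.19, adjusted p = 0.0826; 0.63 and adjusted p = 0.0346 without challenged knockout replicate 1), rose in wild-type (1.17 ± 0.19) and had an uncalled response difference of -0.69 ± 0.26 (adjusted p = 0.0647), which 5 of 21 other settings called, among them without unchallenged knockout replicate 4, challenged wild-type replicate 3 or unchallenged wild-type replicate 2.

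Among the J proteins, Bag3, the small heat shock protein Hspb1 and Hsf1, 4 of 8 rose in knockout and 5 of 8 in wild-type (50% and 62.5%, against 15.6% and 32.4% of all genes). Hspb1, which holds unfolded proteins without ATP, had 4 to 10 counts in each unchallenged library. It was at 1.73, 1.26 and 1.12 CPM in challenged knockout, against 0.567, 0.452 and 0.198 CPM in unchallenged knockout. In wild-type it had 4.29, 4.04 and 5.73 CPM after challenge, against 0.382, 0.409 and 0.457 CPM without it. The challenged groups were separate from each other and from the unchallenged ones, and at these counts the fold is less precise, 3.37-fold in knockout (1.75 ± 0.33) and 11.9-fold in wild-type (3.57 ± 0.30). The responses differed by -1.82 ± 0.48 (adjusted p = 0.00791, edgeR).

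Dnaja1, a J protein that delivers clients to Hsp70, had 191, 235 and 233 CPM in challenged knockout, against 154, 145 and 141 CPM in unchallenged knockout. Challenged wild-type libraries had 447, 410 and 417 CPM, against 141, 125 and 134 CPM in unchallenged wild-type. Challenged knockout was above both unchallenged groups and well below challenged wild-type, and the responses differed by -1.21 ± 0.11 (adjusted p = 8.58e-07, edgeR). Dnajb1, the stress-induced J protein of the Hsp70 disaggregation system, had 81.1, 76.5 and 87.9 CPM in challenged knockout, against 62.3, 57.4 and 64.4 CPM in unchallenged knockout. Its wild-type levels were 111, 120 and 135 CPM after challenge, against 60.7, 59.9 and 66.2 CPM without it. Here the unchallenged groups overlapped, and the responses differed by -0.67 ± 0.12 (adjusted p = 0.000404).

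Dnaja2 rose by 0.26 ± 0.08 in knockout and by 0.38 ± 0.08 in wild-type, and its response difference of -0.12 ± 0.11 was not called; the knockout call was lost in 8 of 22 other settings, among them without challenged knockout replicate 2 or 3 and without unchallenged knockout replicate 3 or 4, with an adjusted p of up to 0.115. Dnajb6 was not called in knockout (0.07 ± 0.07) and rose in wild-type (0.42 ± 0.07), and its response difference of -0.35 ± 0.11 lost its call in 4 of 21 settings, among them without unchallenged knockout replicate 2 or unchallenged wild-type replicate 3. Bag3, which links Hsp70 to autophagy, was called in neither genotype, at -0.27 ± 0.15 in knockout and 0.33 ± 0.15 in wild-type (adjusted p = 0.213 and 0.0609, edgeR). The knockout decrease was called without challenged knockout replicate 1 (-0.49, adjusted p = 0.00916), and the wild-type increase without challenged knockout replicate 1 or 3, challenged wild-type replicate 2 or unchallenged wild-type replicate 3 (0.33 to 0.44). It was lower in challenged knockout than in challenged wild-type by -0.50 ± 0.15 (adjusted p = 0.0113), which was no longer called on leaving out replicate 2 of challenged knockout (adjusted p = 0.0591), its replicate 3 (0.0575) or replicate 3 of challenged wild-type (0.0512). The Bag3 response difference of -0.60 ± 0.21 was called at an adjusted p of 0.0372 and lost its call in 12 of 21 settings, including any fit without challenged knockout replicate 2 or 3, without any of the unchallenged knockout replicates, without challenged wild-type replicate 1 or 3 or without unchallenged wild-type replicate 2 or 4. Dnajb4 was not called in any of the 5 comparisons, and without challenged knockout replicate 1 it was higher in challenged knockout than in challenged wild-type (log2 0.30, adjusted p = 0.0198). Without unchallenged knockout replicate 2, 3 rather than 5 genes of this role had a called response difference.

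Hsf1, the heat shock transcription factor, is controlled mainly after translation, so that its transcript level does not report its activity. It had 54.2, 47.7 and 49.5 CPM in challenged knockout, against 48.1, 48.8 and 52.5 CPM in unchallenged knockout. Its levels in wild-type were 46.0, 47.1 and 50.3 CPM after challenge, against 45.9, 53.5 and 50.3 CPM without it. All 4 groups overlapped, and the edgeR fold changes of 0.01 ± 0.08 in knockout and 0.04 ± 0.08 in wild-type had adjusted p of 0.939 and 0.664.

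All 3 mitochondrial chaperone genes rose in both genotypes, against 15.6% of all genes in knockout and 32.4% in wild-type. All 3 had a smaller response in knockout, against 18.5% of all genes. Hspe1, the lid of the mitochondrial chaperonin, had 85.6, 92.1 and 76.0 CPM in challenged knockout, against 44.2, 40.0 and 38.5 CPM in unchallenged knockout. Wild-type libraries reached 136, 158 and 155 CPM with challenge, against 48.1, 44.8 and 39.1 CPM without it. Its increase was 2.06-fold in knockout and 3.66-fold in wild-type, and the responses differed by -0.83 ± 0.13 (adjusted p = 0.00011, edgeR). Hspd1, the barrel subunit, had 228, 253 and 246 CPM in challenged knockout, against 132, 132 and 134 CPM in unchallenged knockout. In wild-type it had 418, 395 and 408 CPM after challenge, against 141, 138 and 136 CPM without it. Unchallenged knockout was the lower group by a small margin that the test did not call (-0.04 ± 0.05), and the challenged groups were far apart, with a response difference of -0.80 ± 0.08 (adjusted p = 1.24e-06).

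Hspa9, the mitochondrial Hsp70 that pulls precursors into the matrix, had 179, 180 and 185 CPM in challenged knockout, against 119, 116 and 115 CPM in unchallenged knockout. Challenged wild-type libraries had 239, 230 and 245 CPM, against 135, 135 and 123 CPM in unchallenged wild-type. The 4 groups were separate, and its response difference of -0.33 ± 0.08 was the smallest of the 3 (adjusted p = 0.00388, edgeR). The genes Hspd1 and Hspe1 overlap by 112 bases and the strand setting of the counting is not stated, so reads from the shared stretch cannot be assigned. Rows annotated as pseudogenes of Hspd1 held at most 1.48% of its level, the highest such share among the 7 genes here with pseudogene rows.

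Hspd1 and Hspe1 are transcribed away from each other, and the Hspe1 window shares 285 bases with 1 of the 2 Hspd1 windows, which is why this promoter is shown. The Hspe1 window (GRCm38.p6, plus strand, chr1:55087898-55088197) holds 3 overlapping pairs of heat shock element units, in capitals, starting at positions -89, -84 and -79.
Hspe1: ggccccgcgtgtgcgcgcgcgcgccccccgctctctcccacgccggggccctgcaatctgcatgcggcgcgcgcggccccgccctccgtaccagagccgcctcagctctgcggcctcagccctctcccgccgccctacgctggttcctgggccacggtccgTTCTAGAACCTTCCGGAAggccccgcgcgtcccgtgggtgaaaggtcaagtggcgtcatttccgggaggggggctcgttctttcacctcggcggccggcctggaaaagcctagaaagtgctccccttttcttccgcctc
RefSeq gives Hspd1 2 starts. In the window of the one at chr1:55087883-55088182 on the minus strand, the same letters start at -144, -139 and -134, and the window of the other, chr1:55088194-55088493, holds no match. Both genes rose in both genotypes, with level ratios of challenged knockout to challenged wild-type of 52.8% for Hspe1 and 55.7% for Hspd1.

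The 8 CCT subunit genes changed in the same direction. All 8 rose in knockout, by log2 0.34 to 0.56, and all 8 in wild-type, by 0.68 to 1.22, with response differences of -0.73 to -0.35 that were all called. Of all genes, 15.6% rose in knockout, 32.4% rose in wild-type and 18.5% had a smaller response in knockout. Cct3 (the gamma subunit) had 189, 184 and 180 CPM in challenged knockout, against 127, 124 and 138 CPM in unchallenged knockout. Its levels in wild-type were 267, 291 and 312 CPM after challenge, against 129, 140 and 131 CPM without it. The unchallenged groups overlapped, the challenged ones did not, and the increase was 1.41-fold in knockout and 2.34-fold in wild-type (response difference -0.73 ± 0.09, adjusted p = 2.46e-05, edgeR).

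Cct6a (zeta) had 148, 160 and 154 CPM in challenged knockout, against 104, 104 and 103 CPM in unchallenged knockout. Wild-type libraries reached 219, 212 and 222 CPM with challenge, against 111, 106 and 109 CPM without it. The challenged groups lay apart, and the response difference was -0.55 ± 0.07 (adjusted p = 3.57e-05, edgeR). Cct7 (eta) had 218, 201 and 198 CPM in challenged knockout, against 153, 150 and 165 CPM in unchallenged knockout. In wild-type it had 276, 300 and 330 CPM after challenge, against 159, 161 and 157 CPM without it. Challenged knockout stood above both unchallenged groups, which overlapped, and below challenged wild-type, with a response difference of -0.64 ± 0.10 (adjusted p = 0.000143). Cct2 had the smallest response in wild-type, 0.68 ± 0.05, and also the smallest in knockout, 0.34 ± 0.05.

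**Figure D4:**
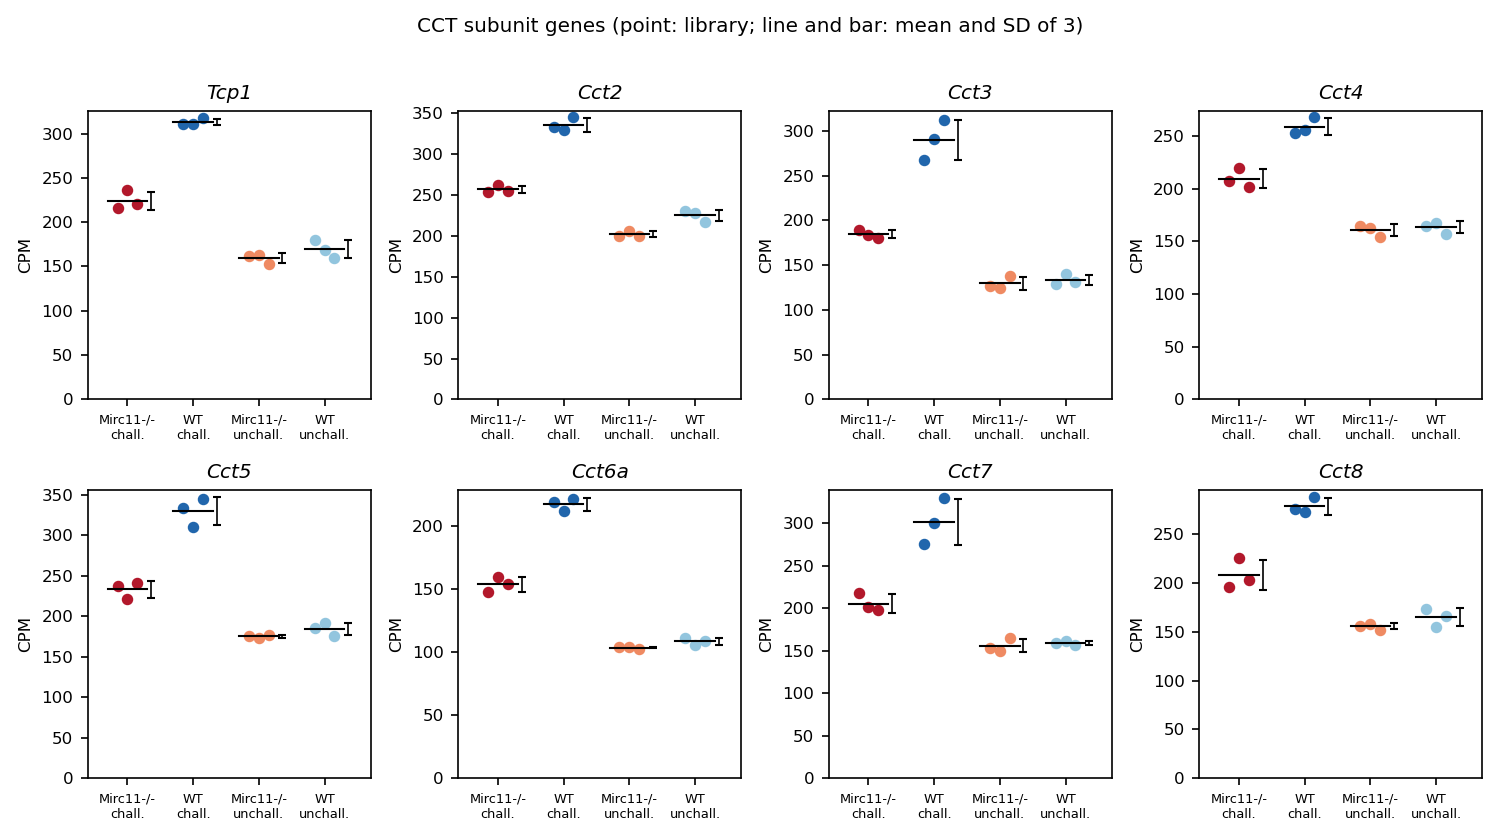
Levels of the 8 CCT subunit genes in every library (y axis, CPM from 0), with 1 point per library and a line and bar at the mean and SD of 3. In every panel the challenged wild-type libraries lie highest and the challenged Mirc11-/- libraries lie between them and the unchallenged ones.

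The assembled complex holds its subunits in equal numbers. On the scale of CPM per kilobase, the lowest subunit was Cct6a in every group and the highest was Cct5 in challenged and Cct2 in unchallenged cells. The highest was 2.01 times the lowest in challenged knockout and 2.01 times in challenged wild-type, and 2.33 and 2.49 times in unchallenged knockout and unchallenged wild-type. The promoter of Cct3, the CCT gene with the largest change in wild-type (GRCm38.p6, plus strand, chr3:88296885-88297184), is shown for comparison and holds none of the letters searched.
Cct3: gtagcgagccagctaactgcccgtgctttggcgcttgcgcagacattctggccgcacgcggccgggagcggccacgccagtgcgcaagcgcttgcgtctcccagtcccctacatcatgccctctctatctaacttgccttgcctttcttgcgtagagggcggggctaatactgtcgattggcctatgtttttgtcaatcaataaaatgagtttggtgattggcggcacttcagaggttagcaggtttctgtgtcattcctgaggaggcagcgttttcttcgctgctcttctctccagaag

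Of the 16 ER genes, 13 rose in knockout and 14 in wild-type (81.2% and 87.5%, against 15.6% and 32.4% of all genes). Their median log2 changes were 0.54 in knockout and 1.39 in wild-type. A smaller response in knockout was called for 13 of the 16 (81.2%, against 18.5% of all genes). The largest change in wild-type belonged to Sdf2l1, which works with the ER J protein Dnajb11 and the ER Hsp70. It had 34.9, 29.7 and 26.1 CPM in challenged knockout, against 19.6, 18.1 and 16.6 CPM in unchallenged knockout. Challenged wild-type libraries had 57.5, 67.4 and 67.1 CPM, against 18.2, 19.5 and 19.1 CPM in unchallenged wild-type. The unchallenged groups overlapped and challenged knockout reached 44.2% of challenged wild-type (log2 -1.18 ± 0.10), with a response difference of -1.13 ± 0.15 (adjusted p = 3.13e-05, edgeR).

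Creld2, an ER-resident protein of the stress response, had 42.4, 37.4 and 40.3 CPM in challenged knockout, against 25.0, 27.7 and 29.1 CPM in unchallenged knockout. Its levels in wild-type were 77.5, 82.3 and 82.1 CPM after challenge, against 25.5, 27.8 and 25.1 CPM without it. Its response difference of -1.18 ± 0.11 was the largest among the ER genes (adjusted p = 1.25e-06, edgeR). Calr, the calcium-binding lectin chaperone, had 501, 478 and 472 CPM in challenged knockout, against 316, 323 and 338 CPM in unchallenged knockout. Wild-type libraries reached 943, 914 and 962 CPM with challenge, against 324, 318 and 325 CPM without it. Challenged groups were separate and unchallenged ones overlapped, with a response difference of -1.09 ± 0.08 (adjusted p = 9.44e-08).

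Hspa5 (BiP), the ER Hsp70, chosen after its values were seen for its promoter, had 568, 557 and 543 CPM in challenged knockout, against 341, 353 and 361 CPM in unchallenged knockout. In wild-type it had 971, 1030 and 1066 CPM after challenge, against 348, 352 and 365 CPM without it. The increase was 1.57-fold in knockout and 3.09-fold in wild-type, and the responses differed by -0.98 ± 0.08 (adjusted p = 3.1e-07, edgeR). The other folding enzymes and chaperones of the ER, Hsp90b1, Pdia3, Pdia4, Pdia6, Canx, Dnajb11, Hyou1 and Manf, all rose in both genotypes, and all had called response differences, between -1.09 for Manf and -0.67 for Canx.

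The ER stress element, CCAAT and CCACG with 9 bases between them, was found on either strand in 7 of the 14 ER genes with a promoter entry (Hspa5, Hsp90b1, Pdia6, Calr, Canx, Dnajc3 and Creld2) and in none of the cytosolic, mitochondrial and CCT genes with one, against 0.137% of all genes in the table. The core of the unfolded protein response element, TGACGTGG, was in none of the 39, against 0.714% of all genes. The windows of Hspa5 (GRCm38.p6, plus strand, chr2:34771840-34772139), whose element in capitals starts at -65, and of Sdf2l1 (GRCm38.p6, minus strand, chr16:17132334-17132633), the ER gene with the largest change and no match, are shown side by side.
Hspa5: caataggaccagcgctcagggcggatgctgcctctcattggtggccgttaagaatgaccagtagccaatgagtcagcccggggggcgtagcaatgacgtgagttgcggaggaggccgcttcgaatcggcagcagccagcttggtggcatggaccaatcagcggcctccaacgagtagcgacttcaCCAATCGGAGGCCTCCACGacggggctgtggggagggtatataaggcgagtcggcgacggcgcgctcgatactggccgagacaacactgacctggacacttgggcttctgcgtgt
Sdf2l1: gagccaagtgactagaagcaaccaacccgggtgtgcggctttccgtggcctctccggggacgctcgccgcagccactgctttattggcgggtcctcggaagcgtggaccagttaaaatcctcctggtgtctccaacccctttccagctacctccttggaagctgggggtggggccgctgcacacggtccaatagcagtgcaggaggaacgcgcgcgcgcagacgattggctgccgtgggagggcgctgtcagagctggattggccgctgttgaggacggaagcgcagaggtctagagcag
Genes with and without the element both rose, but Dnajc3, which holds it, was called in neither genotype, at 0.04 ± 0.07 in knockout and 0.06 ± 0.07 in wild-type.

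Xbp1 encodes the transcription factor of the unfolded protein response whose active form arises by splicing, which counts per gene do not show. It had 109, 104 and 107 CPM in challenged knockout, against 75.5, 71.1 and 74.6 CPM in unchallenged knockout. Challenged wild-type libraries had 145, 154 and 156 CPM, against 78.5, 82.3 and 80.8 CPM in unchallenged wild-type. All 4 groups were separate, and its response differed by -0.50 ± 0.08 between the genotypes (adjusted p = 0.000185, edgeR). Dnajb9, an ER J protein, was not called in knockout (0.62 ± 0.25, adjusted p = 0.0974; 0.86 and adjusted p = 0.011 without challenged knockout replicate 1) and was called in wild-type at an adjusted p of 0.0437 (0.64 ± 0.25), a call lost in 12 of 22 other settings, among them without challenged knockout replicate 2, unchallenged knockout replicate 3, challenged wild-type replicate 1 or 2 or any of the unchallenged wild-type replicates.

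Herpud1, which serves ER-associated degradation, was the only gene of the 47 called lower after challenge. It had 101, 86.8 and 93.5 CPM in challenged knockout, against 107, 105 and 111 CPM in unchallenged knockout. Its levels in wild-type were 106, 112 and 111 CPM after challenge, against 123, 124 and 126 CPM without it. Challenged libraries were below unchallenged ones within each genotype, by -0.21 ± 0.07 in knockout (adjusted p = 0.0287) and by -0.08 ± 0.06 in wild-type (adjusted p = 0.321, edgeR). The knockout call was lost in 9 of 22 settings, among them without challenged knockout replicate 2 (-0.14, adjusted p = 0.124) or 3 (0.0652) and without any 1 of the unchallenged knockout replicates (0.0548 to 0.0993). With library totals or upper-quartile scaling the wild-type decrease was called as well as the knockout one (-0.18 in wild-type under both).

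Without challenge, 2 of the 47 genes were higher in knockout, 0 were lower and 45 were not called, at a median log2 difference of -0.02, while 6.64% of all genes were higher and 5.07% lower. The all-gene count behind the lower share, 846, was 548 without unchallenged knockout replicate 3, and 550 and 504 without unchallenged wild-type replicates 2 and 3. The 0 compares with 5 genes at an unadjusted p below 0.05 (Hspa9, Dnaja2, Herpud1, Cct2 and Hspa1b), 2 in DESeq2 and 0 in limma-voom, and with 3, 1 and 1 called lower in the fits without challenged knockout replicates 1, 2 and 3. The genes called higher were Hspa8 and Hsph1. Unchallenged, Hspa8 was 0.31 ± 0.07 higher in knockout (adjusted p = 0.00526) and Hsph1 0.31 ± 0.07 higher (adjusted p = 0.00772, edgeR). After challenge Hspa8 stood at 34.0% and Hsph1 at 36.8% of the wild-type level, below all other members but Hspb1. The response difference of a gene contains its unchallenged difference, here in the opposite direction to the challenged one.

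**Figure D5:**
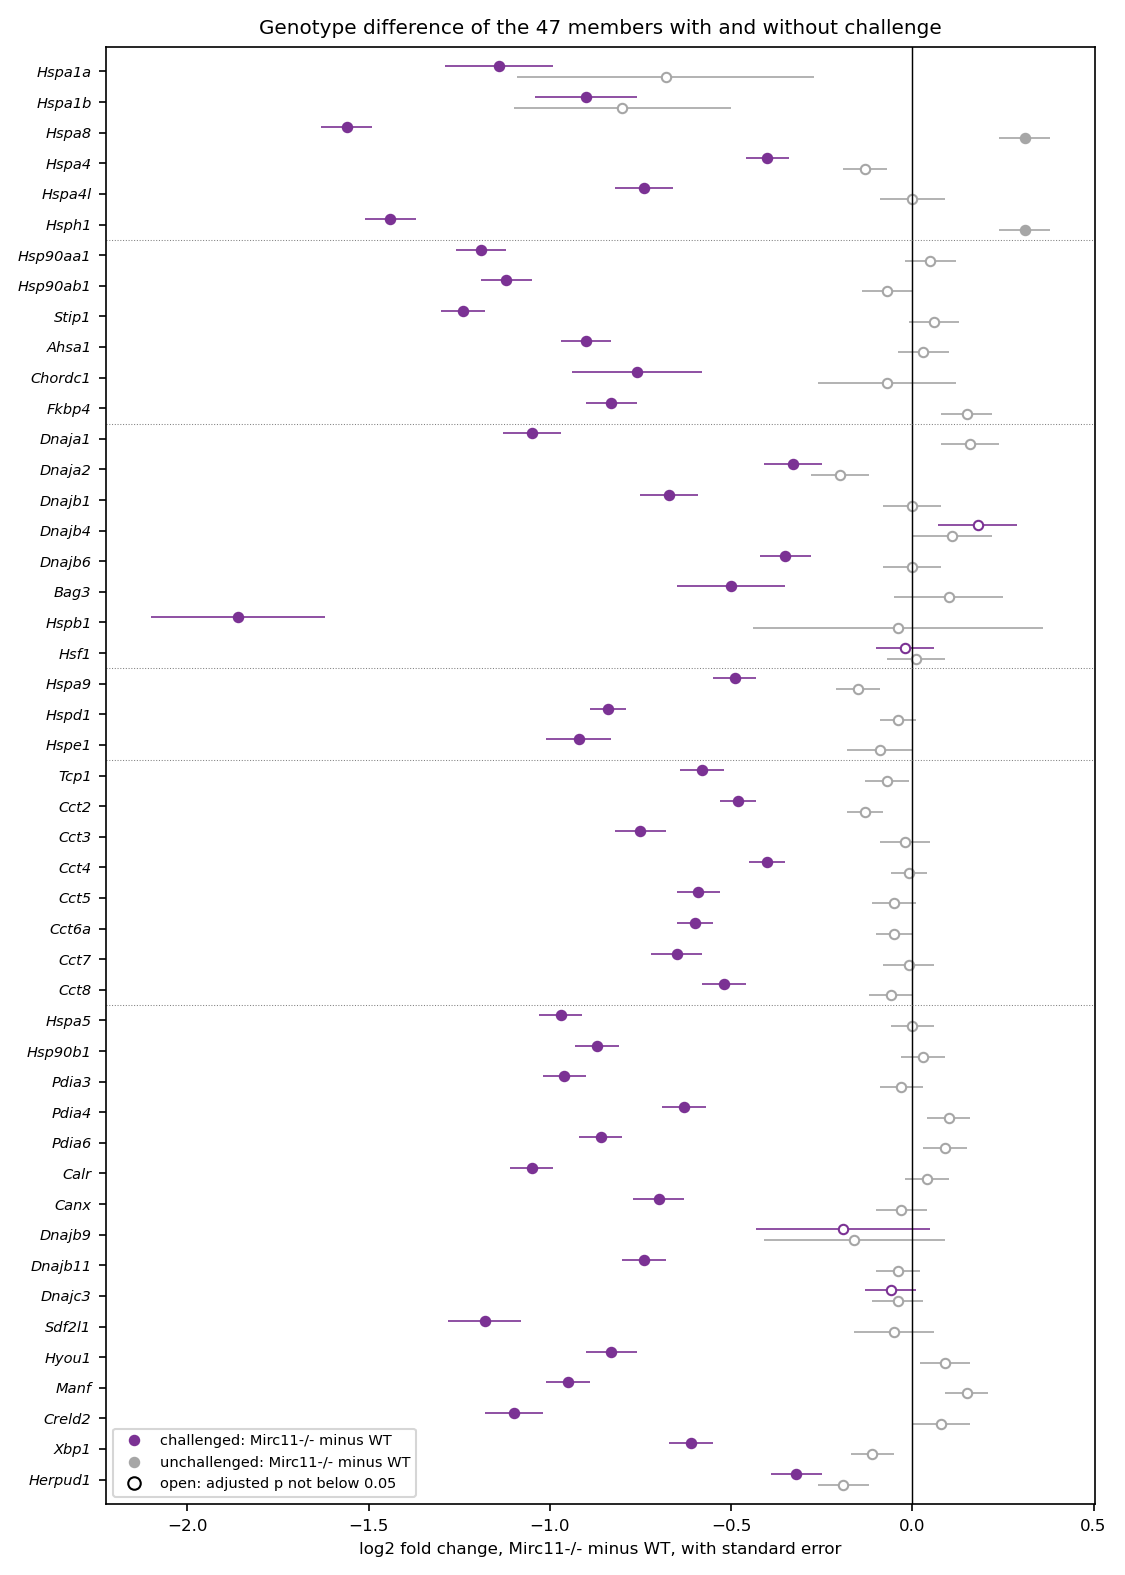
Log2 difference of Mirc11-/- minus wild-type for each of the 47 genes (x axis, with standard error), challenged in purple and unchallenged in grey, open where the adjusted p was not below 0.05. In challenged cells 43 points lie left of 0 and are filled, and in unchallenged cells the filled points are Hspa8 and Hsph1, both right of 0.

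After challenge, the 43 genes that were lower in knockout ranged from Hspb1, at 27.6% of the wild-type level, to Herpud1, at 80.1%. Dnajb4, Hsf1, Dnajb9 and Dnajc3 were not called, with log2 differences of 0.18 ± 0.11, -0.02 ± 0.08, -0.19 ± 0.24 and -0.06 ± 0.07. By compartment, the medians were -0.86 in the cytosol, -0.84 in mitochondria, -0.59 for CCT and -0.85 in the ER. The deleted cluster lies on chromosome 8, at 84208518 to 84208921 in GENCODE vM21, and 4 of the folding genes are on that chromosome: Dnajb1 at 0.596 Mb, Calr at 0.633 Mb, Dnaja2 at 1.33 Mb and Herpud1 at 10.2 Mb from it. None of them was called between unchallenged genotypes, with log2 differences of -0.00, 0.04, -0.20 and -0.19. Herpud1 was called lower there in 4 of 22 other settings and Dnaja2 in 1. After challenge all 4 were among the genes lower in knockout, at 62.8%, 48.2%, 79.8% and 80.1% of the wild-type level. An effect of the deletion on nearby genes was not tested.

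ER folding genes are also abundant in antibody-secreting plasma cells, and 10 plasma cell markers summed to 1134 to 1403 CPM in challenged knockout against 654 to 690 CPM in challenged wild-type. That sum rested largely on Igha, at 763, 590 and 870 CPM in challenged knockout against 183, 187 and 249 CPM in challenged wild-type. Of the 10 plasma cell markers, 5 were lower and 4 higher in challenged knockout than in challenged wild-type, at a median log2 difference of -0.24. Over all genes, 25.9% were lower and 22.7% higher. Derl3 and Fkbp11 among these markers also belong to the lists of further ER genes below, so the marker list is not separate from ER genes. Derl3 was at 8.54, 6.23 and 7.90 CPM in challenged knockout against 10.6, 11.9 and 9.62 CPM in challenged wild-type. Fkbp11 was at 2.11, 2.39 and 2.18 CPM against 2.81, 2.98 and 4.25 CPM. The 16 ER genes summed to 3383 to 3541 CPM in challenged knockout against 5737 to 5879 CPM in challenged wild-type. Neutrophil markers moved with the response difference of the folding genes. Of 10, 7 rose and 3 fell in knockout at a median log2 of 0.94, all 10 rose in wild-type at a median of 3.72, and all 10 had a smaller response in knockout, at a median of -3.44. After challenge 6 were lower and 4 higher in knockout than in wild-type. Without challenge 9 of 10 were higher in knockout, at a median of 3.06, with sums of 467 to 482 CPM in unchallenged knockout against 61.0 to 62.9 CPM in unchallenged wild-type. Monocyte and macrophage markers summed to 1030 to 1274 CPM in challenged knockout against 1251 to 1457 CPM in challenged wild-type, and of these 10, 6 had a smaller and 2 a larger response in knockout. B cell markers summed to 1686 to 1775 CPM in challenged knockout against 1921 to 2001 CPM in challenged wild-type, and T cell markers to 375 to 431 CPM in challenged knockout against 254 to 262 CPM in challenged wild-type. The response in knockout was larger for 10 of 10 T cell, 8 of 8 red-cell and 3 of 9 B cell markers and smaller for none of these. Among 10 plasma cell markers it was larger for 3 (30%) and smaller for 2 (20%). Over all genes, the response in knockout was larger for 16.7% and smaller for 18.5%. The part of these cells in the result was not tested.

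Related genes outside the 47 were taken from 5 lists of the same pathways. Of 35 tested further cytosolic chaperones and co-chaperones, 7 rose and 4 fell in knockout, and 20 rose and 7 fell in wild-type. In knockout these are 20% and 11.4% of the list, near the 15.6% and 11.5% of all genes, and in wild-type 57.1% and 20%, against 32.4% and 30.9% of all genes. Leaving out 1 library moved the knockout counts to 4 to 9 higher (4 without unchallenged knockout replicate 4) and 2 to 4 lower (2 without challenged knockout replicate 3 or unchallenged knockout replicate 3). Their median changes were 0.07 in knockout and 0.34 in wild-type. In challenged knockout 15 were lower and 4 higher than in challenged wild-type (42.9% and 11.4%, against 25.9% and 22.7% of all genes). St13, the Hsp70-interacting protein that stabilises substrate binding, was at 112, 130 and 118 CPM in challenged knockout and at 198, 192 and 186 CPM in challenged wild-type, with a response difference of -0.80 ± 0.09. Fkbp5, a glucocorticoid-induced immunophilin, was at 127, 120 and 104 CPM in challenged knockout and at 140, 144 and 151 CPM in challenged wild-type, with a response difference of -0.72 ± 0.10. For both the challenged groups were separate. Chosen after their values were seen, 2 other heat shock factors moved in opposite directions: Hsf2 rose by 0.44 ± 0.12 in knockout and 1.33 ± 0.11 in wild-type, and Hsf4 changed by -0.63 ± 0.14 in knockout and -2.37 ± 0.16 in wild-type, both called.

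Prefoldin passes unfolded actin and tubulin to CCT. Of 9 tested genes of prefoldin and other CCT partners, 2 rose in knockout (22.2%, against 15.6% of all genes) and 5 in wild-type (55.6%, against 32.4%). In challenged knockout 4 were lower than in challenged wild-type (44.4%, against 25.9%). Pfdn1 changed by 0.30 ± 0.08 in knockout and 0.71 ± 0.08 in wild-type, and Pfdn2 by 0.32 ± 0.07 in knockout and 0.46 ± 0.07 in wild-type, all called. Of 16 further genes of mitochondrial protein import and quality control, 2 rose in knockout (1 without challenged knockout replicate 1 or 3 or any unchallenged knockout replicate) and 6 in wild-type, where 1 fell (2 without unchallenged wild-type replicate 2). The rises are 12.5% of the list in knockout and 37.5% in wild-type, near the 15.6% and 32.4% of all genes. The 1 that fell in wild-type is 6.25% of the list, against 30.9% of all genes. In challenged knockout 1 was higher than in challenged wild-type (0 without challenged knockout replicate 3 or challenged wild-type replicate 1 or 2). That is 6.25%, against 22.7% of all genes. The count lower in challenged knockout was 7, which is 43.8% of the list, against 25.9% of all genes. It was 1 without challenged knockout replicate 2, 3 without challenged knockout replicate 3 or challenged wild-type replicate 3, and 4 without challenged wild-type replicate 2 or unchallenged wild-type replicate 3. Htra2, an intermembrane-space protease, changed by 0.12 ± 0.09 in knockout, which was not called, and rose by 0.70 ± 0.09 in wild-type. Dnaja3, the mitochondrial J protein, rose by 0.30 ± 0.07 in knockout and 0.42 ± 0.07 in wild-type.

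In the ER, 24 genes of the unfolded protein response sensors and of ER-associated degradation were tested, with 4 higher and 2 lower in knockout and 12 higher and 5 lower in wild-type. In knockout these are 16.7% and 8.33% of the list, near the 15.6% and 11.5% of all genes, and in wild-type 50% and 20.8%, against 32.4% and 30.9%. Leaving out 1 library moved the knockout counts to 2 to 4 higher, with 2 without unchallenged knockout replicate 4, and to 0 to 4 lower, with 4 without challenged knockout replicate 1, 0 without unchallenged knockout replicate 4, and 1 without challenged knockout replicate 2 or 3 or unchallenged knockout replicate 2. In challenged knockout 14 were lower and 2 higher than in challenged wild-type (58.3% and 8.33%, against 25.9% and 22.7% of all genes). The count of 2 was 1 without any 1 of the challenged libraries. The response in knockout was smaller for 7 and larger for 0 (29.2% and 0%, against 18.5% and 16.7% of all genes). Leaving out 1 library moved the 7 to 5 to 10 and the 0 to at most 1. Ern1, which encodes the sensor IRE1 that splices Xbp1, had 130, 130 and 117 CPM in challenged knockout, against 142, 138 and 146 CPM in unchallenged knockout. Wild-type libraries reached 273, 268 and 269 CPM with challenge, against 144, 140 and 135 CPM without it. Challenged knockout was thus the lowest group and challenged wild-type the highest. The edgeR changes were -0.18 ± 0.06 in knockout (adjusted p = 0.0242) and 1.05 ± 0.06 in wild-type (adjusted p = 3.16e-10), and the response difference was -1.24 ± 0.08. Vcp, the ATPase that extracts proteins for degradation, rose by 0.22 ± 0.05 in knockout and 0.60 ± 0.05 in wild-type.

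Of 32 further tested ER folding and translocation genes, 6 rose and 1 fell in knockout (18.8% and 3.12%, against 15.6% and 11.5% of all genes), and 21 rose and 3 fell in wild-type (65.6% and 9.38%, against 32.4% and 30.9%). In challenged knockout 19 were lower and 3 higher than in challenged wild-type (59.4% and 9.38%, against 25.9% and 22.7% of all genes). The response in knockout was smaller for 16 and larger for 1 (50% and 3.12%, against 18.5% and 16.7% of all genes). The count with a larger response became 2 without challenged knockout replicate 1. Without unchallenged knockout replicate 2 the number that rose in knockout was 3. Ssr2, a translocon-associated subunit, was not called in knockout (0.09 ± 0.06) and rose by 0.88 ± 0.06 in wild-type. Serpinh1, a collagen chaperone, was low, at 5.28, 4.36 and 3.53 CPM in challenged knockout against 2.33, 2.89 and 2.23 CPM in unchallenged knockout, and at 9.74, 14.1 and 10.3 CPM in challenged wild-type against 0.655, 1.38 and 1.07 CPM in unchallenged wild-type. All 4 groups were separate, and without challenge knockout was higher by 1.27 ± 0.27 (adjusted p = 0.00525, edgeR).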

How the data were processed

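RNA was measured by sequencing of polyA RNA (Trizol extraction and the Illumina TruSeq RNA kit, per the labels) in 12 libraries, 3 in each of 4 groups taken from the genotype and treatment labels. The authors deposited 1 count per gene in each library, with no normalization. The submitters' processing notes name the GRCm38 genome and, as tools, RSEM 1.3.0, Bowtie2 2.2.8, Trim Galore 0.4.1 and bcl2fastq. RSEM gives estimated counts and the deposited values are whole numbers; how they were rounded, the annotation release and the strand setting are not stated in the sources used here. All value columns were used. Library totals of 17624530 to 23665679 make 3 counts worth 0.127 to 0.17 CPM, a floor that covers counting error only. Within-group pairs differed by 3.38 to 26.9 times the counting noise, so no library was a duplicate.

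The 47 members and all lists were chosen with earlier results of these data known. Genes were filtered with filterByExpr over the 4 groups and a model with 1 term for each group was fitted to the 12 libraries by the robust quasi-likelihood test of edgeR 4.0.16 (R 4.3.3) with TMM scaling, Benjamini-Hochberg adjusted over 16694 genes within each of 5 contrasts and called at an adjusted p below 0.05. Fold changes are on the log2 scale with standard errors derived from the F statistic. The fit was tested on simulated data in which a small share of genes changed, balanced up and down, in challenged wild-type only. That setting does not cover changes as wide as those here. DESeq2 1.42.0, limma-voom (limma 3.58.1), other scalings and filters, a fit of only the 2 groups compared, a replicate block and fits without each library were alternatives, 22 in all.

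Values in every library are given for the 3 called members per role with the largest wild-type challenge change, members called in wild-type against their role's median direction, the up to 6 members with the smallest p called between unchallenged genotypes, members called in knockout with a sign opposite to wild-type, Hsf1 and Xbp1; outside the members, the 2 genes per list with the smallest p in wild-type are named. Hspa5, Herpud1 and members or listed genes given only by fold change fall outside this rule and were chosen after their values were seen, as were the printed Hspa5 promoter and its comparison with Sdf2l1. Unchallenged replicates are numbered 2 to 4 as in the column names. Promoter windows come from RefSeq (GRCm38.p6) and gene positions from GENCODE vM21 (GRCm38); motif positions count from the start, with -1 just before it. Promoter entries matched 39 members. Other tools were Python 3.11.15, pandas 2.3.3, numpy 2.4.6 and matplotlib 3.10.9.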

Additional observations from a re-analysis of the deposited data

Results flagged for a closer look

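For 38 of the 47 genes the challenge response differed between the genotypes by a test of the difference itself, the interaction term of the edgeR fit. Each value is the log2 response in knockout minus that in wild-type, and all 38 were negative. They are 80.9% of the 47, while 18.5% of all genes were called with a smaller and 16.7% with a larger response in knockout. Among the Hsp70 and Hsp110 genes, the values were Hspa8 at -1.87, Hspa4 at -0.27, Hspa4l at -0.74 and Hsph1 at -1.75. Among the Hsp90 genes and co-chaperones, the values were Hsp90aa1 at -1.25, Hsp90ab1 at -1.05, Stip1 at -1.29, Ahsa1 at -0.93 and Fkbp4 at -0.98. Among the J proteins, Bag3 and Hspb1, the values were Dnaja1 at -1.21, Dnajb1 at -0.67, Dnajb6 at -0.35, Bag3 at -0.60 and Hspb1 at -1.82. Among the mitochondrial genes, the values were Hspa9 at -0.33, Hspd1 at -0.80 and Hspe1 at -0.83. Among the CCT genes, the values were Tcp1 at -0.51, Cct2 at -0.35, Cct3 at -0.73, Cct4 at -0.40, Cct5 at -0.54, Cct6a at -0.55, Cct7 at -0.64 and Cct8 at -0.46. Among the ER genes, the values were Hspa5 at -0.98, Hsp90b1 at -0.90, Pdia3 at -0.93, Pdia4 at -0.73, Pdia6 at -0.95, Calr at -1.09, Canx at -0.67, Dnajb11 at -0.70, Sdf2l1 at -1.13, Hyou1 at -0.92, Manf at -1.09, Creld2 at -1.18 and Xbp1 at -0.50. The values for Hspa4, Dnajb6 and Bag3 lost their call in several other settings, given with these genes above. No cause of the differences was tested. With 3 libraries a group, no library was tested as an outlier.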

How the results depend on the processing

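Each of the 47 genes was followed through 22 other settings in 4 comparisons and 21 in the interaction, and none reversed a called direction. The count of genes lower in challenged than unchallenged wild-type, 0, became 1 (Herpud1) with library totals without TMM and with upper-quartile scaling. The count lower after challenge in knockout, 1 (Herpud1), became 0 with no low-count filter, with only the 2 groups compared and with the replicate block. It also became 0 without challenged knockout replicate 3 and unchallenged wild-type replicate 4 together, a setting chosen after seeing the data. Ddx3y was at 34.6 CPM in that wild-type library, against 0.0546 and 0.102 CPM in the others of its group. In that knockout library Xist was at 1027 CPM, against 526 and 694 CPM in the others of its group, but Ddx3y, at 44.1 CPM, was near the 44.7 CPM of replicate 1. When each library was left out, the count lower after challenge in knockout ran from 0 to 2, with 2 (Herpud1 and Bag3) without challenged knockout replicate 1. The count higher in challenged knockout than challenged wild-type, 0, ran from 0 to 1 on leaving out a library. The count lower in unchallenged knockout than unchallenged wild-type, 0, became 2 in DESeq2 (Hspa1b and Cct2), 1 with library totals (Herpud1) and 2 with only the 2 groups compared (Hspa1b and Herpud1), and ran from 0 to 3 on leaving out a library.

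The other counts of these genes stayed within 1.5 times: 37 to 41 higher after challenge in knockout and 41 to 43 in wild-type, 42 to 43 lower in challenged knockout than challenged wild-type and 35 to 39 with a smaller response in knockout, over all settings. So did the counts over all genes with both directions together; by direction, genes lower after challenge in knockout were 1185 with the replicate block against 1915 without it, and genes lower in unchallenged knockout than unchallenged wild-type 504 to 550 in 3 fits without 1 library, against 846. Relative to TMM, library totals shifted the median of all genes by -0.10 for wild-type challenge, 0.10 for challenged knockout minus challenged wild-type and 0.11 for the interaction, and upper-quartile scaling by -0.11 for wild-type challenge. The share of calls that were higher moved with it, to 59.2% against 46.7% with TMM for challenged knockout minus challenged wild-type and to 61.7% against 47.5% for the interaction with library totals, and to 46.7% against 57.5% for knockout challenge with upper-quartile scaling. The causes were not tested.

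Replicate numbers 2 and 3 are shared across the 4 groups, whereas 1 occurs only in challenged and 4 only in unchallenged libraries. The replicate block thus partly coincides with challenge, so a call that changes with it cannot be put down to pairing. Residuals of same-numbered libraries correlated at -0.317 to 0.249 and those of different numbers at -0.264 to 0.319, ranges that overlap. With 3 libraries a group this cannot exclude pairing. Titles of unchallenged samples also carry another replicate number, and pairing by that number was not checked. With the replicate block, Dnajb9 in wild-type (adjusted p = 0.0847), Dnaja2 in knockout (0.0604), Herpud1 in knockout (0.084) and the Hspa4 interaction (0.0614) lost their calls, and the Chordc1 interaction gained one (0.0323). Depth limits the folds of Hspb1, with 4 to 10 counts, and Hspa1a, with 12 to 28 counts in each unchallenged library.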
